A study of Mus musculus with 8 samples.

Results

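The genes described here encode 9 growth factors that macrophages can release toward tumor cells, vessels and other stroma: Nrg1, Hbegf, Areg, Tgfa, Pdgfa, Pdgfb, Vegfb, Igf1 and Osm. They were picked by name from a table of 55450 genes, and all 9 passed the filter on low counts, which left 16467 genes. The mRNA was counted in 2 populations of tumor myeloid cells from wild-type mice carrying GL261, a mouse glioma line, in the brain. Resident microglia (3 libraries) were sorted as F4/80+ CD11b+ cells with low CD45, low or absent Ly6C, no Ly6G and low or absent CD49d. Bone marrow-derived macrophages (BMDM, 5 libraries), which enter the tumor as blood monocytes, were CD45+ and CD49d high under otherwise like gates. The labels give neither the age of the mice nor whether each library came from its own mouse, so the spread that p-values rest on is that between libraries and may be technical.

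These factors act on neighbouring cells through receptor tyrosine kinases or, for oncostatin M, a cytokine receptor. Heparin-binding EGF-like growth factor (Hbegf), amphiregulin (Areg) and TGF-alpha (Tgfa) bind the EGF receptor, while neuregulin 1 (Nrg1) binds ERBB3 and ERBB4. All of them are made as membrane precursors that metalloproteinases such as ADAM17 can shed. PDGF-A and PDGF-B drive glial progenitors and vessel-wall cells through PDGFRA and PDGFRB, VEGF-B binds FLT1 and neuropilin 1, and IGF-1 signals through IGF1R. Oncostatin M (Osm), a cytokine of the interleukin 6 family, binds gp130 (Il6st) paired with its own receptor chain, Osmr.

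RefSeq promoter windows were at hand for 5 of the 9 genes (6 windows, GRCm38.p6). The 250 bases before the transcription start are shown for the EGF receptor ligands Areg and Tgfa, because the folds of these ligands of 1 receptor had opposite signs in the comparison below. Capitals mark matches to the cAMP response element TGACGTCA and the TATA box TATAAA, searched on both strands together with the AP-1 letters TGANTCA.
Areg, chr5:91139349-91139598, plus strand: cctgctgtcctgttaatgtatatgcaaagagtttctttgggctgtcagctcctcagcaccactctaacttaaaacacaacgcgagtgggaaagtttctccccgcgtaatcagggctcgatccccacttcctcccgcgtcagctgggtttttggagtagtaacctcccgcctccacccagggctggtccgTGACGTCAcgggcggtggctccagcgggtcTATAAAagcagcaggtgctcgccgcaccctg
Tgfa, chr6:86194972-86195221, plus strand: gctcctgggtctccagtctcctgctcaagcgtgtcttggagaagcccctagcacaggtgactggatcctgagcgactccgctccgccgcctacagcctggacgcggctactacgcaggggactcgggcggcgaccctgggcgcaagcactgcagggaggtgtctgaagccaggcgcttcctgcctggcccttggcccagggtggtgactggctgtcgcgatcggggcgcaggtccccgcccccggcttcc
The Areg window held the cAMP response element letters 61 to 54 bases before the start and the TATA letters 31 to 26 bases before it. The Tgfa window held none of these letters. Of the windows not shown, that of Igf1 held AP-1 letters (TGAATCA) 37 to 31 bases before its start, and those of Pdgfa and Vegfb held none. Of all 32851 promoter windows of this length, 1.55% held TGACGTCA, 12.4% held TATAAA and 6.75% held TGANTCA. A match describes the letters and was not tested as a binding site.

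Libraries held 10491469 to 16659154 counts in microglia and 5890406 to 9169531 in BMDM. Gm42418, a gene model over ribosomal RNA, took 14.8% to 19.8% of all counts in BMDM 1 to 3. Its share was larger in BMDM 4 (41.2%), BMDM 5 (48.9%) and the microglia libraries (34.0% to 47.0%). BMDM 4 and BMDM 5 also detected fewer genes, 13346 and 14638, against 20011 to 21778 in BMDM 1 to 3. Results are therefore given with BMDM 1 to 3 alone where that changes them. In that subset every BMDM library had a lower Gm42418 share than every microglia library. The group difference there cannot be told apart from this difference in share. Marker mRNA followed the sort labels: 7 of 10 microglia markers were lower in BMDM and 0 higher, and 9 of 10 monocyte-derived markers were higher and 0 lower. The latter include Itga4, which encodes CD49d, a protein of the gates, so Itga4 is no separate check of the labels. Levels are given as CPM, gene counts scaled to library size with TMM factors. Of 6 dendritic cell markers 5 could be tested, and edgeR called 1, Ccr7, higher in BMDM (log2 fold change 6.15, adjusted p = 0.0346). DESeq2 called 1 of them higher and limma-voom 0. With BMDM 1 to 3 alone edgeR called Ccr7 and Xcr1 higher, as it did 6.35% of all genes. The list summed to 1.74 to 4.53 CPM in microglia and 2.90 to 69.5 CPM in BMDM, lowest in BMDM 5.

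Of the 9 growth factors, 1 (Nrg1) was higher in BMDM, as were 1.11% of all genes tested, and 1 (Hbegf) was lower, as were 0.814% (1.93% called in all). A call is a Benjamini-Hochberg adjusted p under 0.05 over all genes in the quasi-likelihood test of edgeR. Nrg1 was 38.4-fold higher in BMDM, and Hbegf was 3.75-fold higher in microglia. For 5 of the 9, every BMDM library lay on 1 side of every microglia library, against 13.0% of all genes tested. BMDM lay above for Nrg1 and Areg (4.32% of all genes) and below for Hbegf, Tgfa and Pdgfb (8.66%). The median log2 fold change (BMDM minus microglia) was -0.027 over the 9 genes and 0.078 over all genes tested. With BMDM 1 to 3 alone, Nrg1 was higher and Hbegf, Tgfa and Pdgfb lower (1 and 3 of 9), in a comparison that called 14.5% of all genes (6.35% higher and 8.11% lower). With BMDM 4 and 5 alone 0 of the 9 were called by edgeR in either direction, and of all genes 0.105% were (0.0683% higher and 0.0372% lower). At an unadjusted p under 0.05 that comparison held 3 of the 9 higher (Nrg1, Areg and Osm) and 2 lower (Hbegf and Pdgfb). The share of all genes at that unadjusted threshold was not counted, so these numbers have no background here. The comparison also rests on 2 BMDM libraries. DESeq2 called 1 higher (Areg) and 2 lower (Hbegf and Pdgfb), against 3.65% and 1.90% of all genes. It gave Nrg1 no adjusted p, having flagged an outlying count in BMDM 5. Limma-voom called 0 higher and 2 lower (Hbegf and Pdgfb), against 0.856% and 1.52%. Without a filter on low counts, edgeR called 1 higher and 3 lower, against 1.29% and 1.02% (2.31% in all). A fit with the replicate number as a block called 2 of the 9 higher (Nrg1 and Areg) and 2 lower (Hbegf and Pdgfb), against 8.80% and 10.8% of all genes (19.6% in all). In that fit BMDM 4 and 5 had no microglia library of the same number, so its group difference rests on replicates 1 to 3. In bulk libraries, fewer cells that make a transcript and less of it per cell cannot be told apart.

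**Figure D1:**
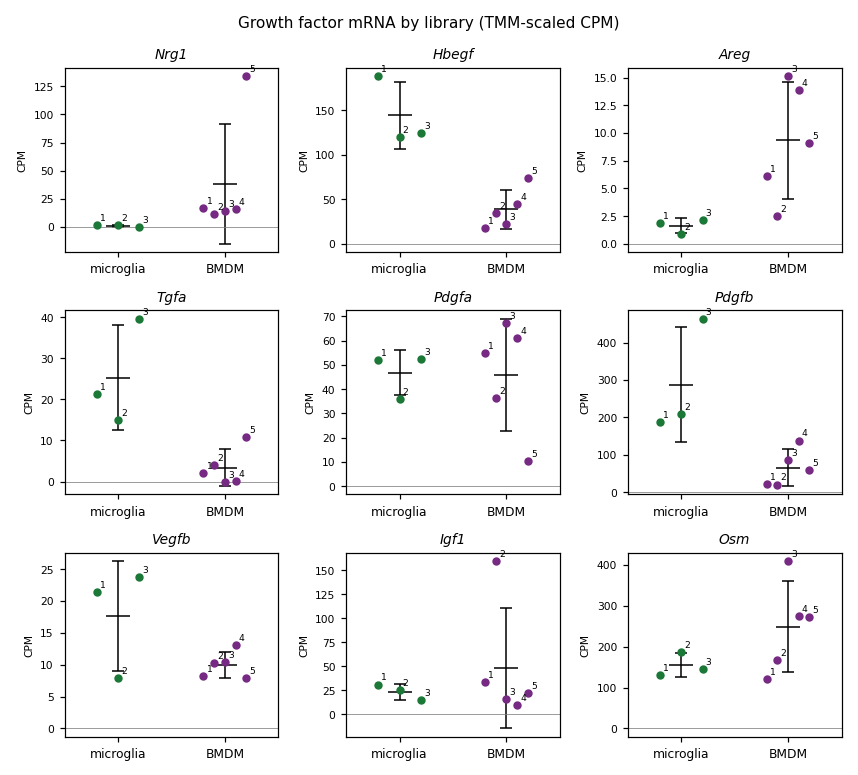
Growth factor mRNA in each library as TMM-scaled CPM (vertical axis, linear, a separate scale per gene), with 3 microglia and 5 BMDM libraries as numbered points and the group mean and SD as a bar with whiskers. Nrg1 lies at 0 to 1.51 CPM in microglia and 11.3 to 134 CPM in BMDM, and Hbegf at 120.3 to 188 CPM in microglia and 18.0 to 73.4 CPM in BMDM.

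Nrg1 (ENSMUSG00000062991.7, chromosome 8, 31814551 to 32884029, minus strand, GRCm38) encodes neuregulin 1, a ligand of ERBB3 and ERBB4. Microglia 1, 2 and 3 held 26, 15 and 0 counts, or 1.37, 1.51 and 0 CPM, and the 0 in microglia 3 allows up to 0.334 CPM (3 counts). BMDM 1 to 5 held 16.5, 11.3, 14.4, 16.1 and 134 CPM. Every BMDM library was above every microglia library, and BMDM 5 stood far above the other BMDM libraries. Its exact Poisson interval of 125 to 142 CPM lay outside those of the others, which reached 19.7 CPM at most. These intervals and limits cover counting error only, since reads carried no molecular identifiers. The means were 38.4 ± 53.3 CPM (SD, n = 5) and 0.959 ± 0.833 CPM (n = 3), and the log2 fold change was 5.26 (SE 1.14, edgeR adjusted p = 0.0277).

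Without BMDM 5, Nrg1 was still higher, at 3.86 (SE 0.94, edgeR adjusted p = 0.0300), and with BMDM 1 to 3 alone it was at 3.82 (SE 0.87, edgeR adjusted p = 0.0149). The call was lost without microglia 1 (edgeR adjusted p = 0.296), microglia 2 (0.245) or microglia 3 (log2 fold change 4.61, adjusted p = 0.154). Limma-voom gave 5.41 (adjusted p = 0.159). DESeq2 gave 5.34 with no adjusted p, because it flagged the count of BMDM 5 as outlying by Cook's distance. Gm26578, a noncoding gene on the opposite strand within Nrg1, held 131 counts over all libraries against 1452 for Nrg1. Whether the authors counted by strand is unknown from the sources used here.

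Hbegf (ENSMUSG00000024486.6, chromosome 18, 36504927 to 36515805, minus strand) encodes a heparin-binding ligand of EGFR and ERBB4. In microglia 1, 2 and 3, Hbegf stood at 188, 120.3 and 124 CPM. The 5 BMDM libraries, from 1 to 5, held 18.0, 34.4, 22.4, 44.4 and 73.4 CPM. The groups did not overlap, and BMDM 5 came closest to microglia. The means were 144 ± 38.1 CPM (n = 3) in microglia and 38.5 ± 22.1 CPM (n = 5) in BMDM, so Hbegf fell by 1.91 in BMDM on the log2 scale (SE 0.43, edgeR adjusted p = 0.0311).

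With BMDM 1 to 3 alone the log2 fold change of Hbegf was -2.52 (SE 0.33, edgeR adjusted p = 0.00126), with BMDM 4 and 5 alone it was -1.31 (adjusted p = 0.214), and without BMDM 5 it was -2.30 (0.00348). DESeq2 and limma-voom also called it, at -1.83 (adjusted p = 0.00332) and -2.07 (adjusted p = 0.0197). Leaving out BMDM 1, 2, 3 or 4 ended the edgeR call, with adjusted p of 0.0704, 0.0791, 0.101 and 0.0536, as did leaving out microglia 1 (0.153) or microglia 3 (0.0625). Hbegf is itself known as an immediate early gene. Of 21 tested genes of an immediate early and heat shock list, 2 (Egr1 and Egr3) were lower in BMDM and 0 higher by edgeR. There were 6 and 1 at an unadjusted p under 0.05, 4 and 1 by DESeq2, and 2 and 1 by limma-voom. With BMDM 1 to 3 alone edgeR called Egr1, Egr3, Jun, Klf2, Klf4 and Hsp90aa1 lower and Ier3 higher, against 8.11% and 6.35% of all genes. The list summed to 10044 to 23085 CPM in microglia and 7791 to 13028 CPM in BMDM. Its part in the difference of Hbegf was not tested.

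Areg (ENSMUSG00000029378.5, chromosome 5, 91139599 to 91148432, plus strand) encodes amphiregulin, an EGF receptor ligand of tissue repair. Microglia 1, 2 and 3 held 1.89, 0.905 and 2.11 CPM (36, 9 and 19 counts). BMDM 1 to 5 held 6.12, 2.46, 15.1, 13.8 and 9.12 CPM. The groups did not overlap, though BMDM 2 lay close to microglia 3, with Poisson intervals of 1.50 to 3.80 and 1.27 to 3.30 CPM. The log2 fold change was 2.50 (SE 0.91, edgeR adjusted p = 0.209), with a 95% interval of 0.56 to 4.44 without adjustment for the number of genes. Areg did not pass edgeR's test, while DESeq2, which called 5.55% of all genes, gave 2.59 (adjusted p = 0.0165).

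T cells and innate lymphoid cells also make amphiregulin, although gates on F4/80 and CD11b should leave them out. Of their 12 markers 10 could be tested, and edgeR called 0 of them, with 8 higher at an unadjusted p under 0.05. DESeq2 called 7 higher and limma-voom 0. With BMDM 1 to 3 alone edgeR called Cd3d, Cd4, Nkg7, Gata3 and Il2rb higher, as it did 6.35% of all genes. The list summed to 18.5 to 21.3 CPM in microglia and 58.5 to 171 CPM in BMDM. None of the 12 was at 0 in all libraries. In BMDM 5, with 9.12 CPM of Areg, Cd8a, Ncr1 and Gata3 stood at 0, Cd3d and Nkg7 at 0.138 CPM and Cd4 at 0.276 CPM. Cd2 was at 1.11 CPM there and Il2rb at 2.07 CPM. Cd3e stood at 7.19 CPM, its highest level in any library, Trac at 4.01 CPM, Cd3g at 3.59 CPM and Il7r at 63.4 CPM. Mast cell and basophil markers summed to 4.00 to 19.7 CPM in microglia and 11.2 to 24.0 CPM in BMDM, with Fcer1a at 0 in every library and 0 of 3 tested genes called by edgeR, DESeq2 or limma-voom, also 0 at an unadjusted p under 0.05. The part of these cells in the Areg values was not tested.

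Tgfa (ENSMUSG00000029999.14, chromosome 6, 86195223 to 86275719, plus strand) encodes TGF-alpha, the EGF receptor ligand named for its transforming activity. Tgfa stood in microglia 1, 2 and 3 at 21.3, 15.0 and 39.6 CPM. Those in BMDM 1 to 5 were 2.00, 3.94, 0, 0.159 and 10.9 CPM, from 15, 32, 0, 1 and 79 counts, and the 0 of BMDM 3 allows up to 0.343 CPM (3 counts). All BMDM libraries lay below all microglia libraries, and BMDM 5 was the highest of them. The log2 fold change was -2.89 (SE 1.04, edgeR adjusted p = 0.207), with an unadjusted 95% interval of -5.12 to -0.66, and the call was not made. Without BMDM 5 it was called, at -4.01 (edgeR adjusted p = 0.0356), as it was with BMDM 1 to 3 alone, at -3.65 (SE 0.87, adjusted p = 0.0181). Of 14 glioma, glial and neuronal markers 11 could be tested and 0 were called by edgeR, DESeq2 or limma-voom, with 2 lower at an unadjusted p under 0.05, Olig1 at -2.28 and Sox10 at -1.74 (edgeR adjusted p = 0.198 and 0.184). With BMDM 1 to 3 alone Rbfox3, a neuronal marker, was the only gene of the list called, higher at 1.74 (edgeR adjusted p = 0.0186). The list summed to 131 to 359 CPM in microglia, lowest in microglia 3, and 129 to 204 CPM in BMDM, highest in BMDM 5. Olig2, a marker of oligodendrocyte lineage and glioma cells, stood at 0.159 CPM in BMDM 4 and 37.5 CPM in BMDM 5, the lowest and highest of the BMDM libraries. The part of these cells in the Tgfa values was not tested.

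Counts of the 7 EGF receptor ligands were also compared within each library, as shares of 3′-end counts that are not divided by transcript length. The ligands together reached 175 ± 36.0 CPM (n = 3) in microglia and 57.6 ± 25.8 CPM (n = 5) in BMDM. Hbegf made up 87.6%, 83.6% and 74.2% of these counts in microglia 1, 2 and 3. In BMDM 1 to 5 its share was 54.2%, 73.0%, 50.8%, 68.7% and 74.0%, so BMDM 5 lay within counting error of microglia 3 (exact Clopper-Pearson intervals 70.6% to 77.1% and 71.9% to 76.3%). Areg took at most 1.26% in a microglia library (microglia 3, interval 0.762% to 1.96%). In BMDM it took at least 5.24% (BMDM 2, 3.23% to 7.97%) and at most 34.2% (BMDM 3, 29.5% to 39.2%), and the groups did not overlap. Tgfa took 9.92%, 10.4% and 23.7% in microglia, and 6.02%, 8.38%, 0%, 0.246% and 11.0% in BMDM 1 to 5, where the groups overlapped through BMDM 5.

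**Figure D2:**
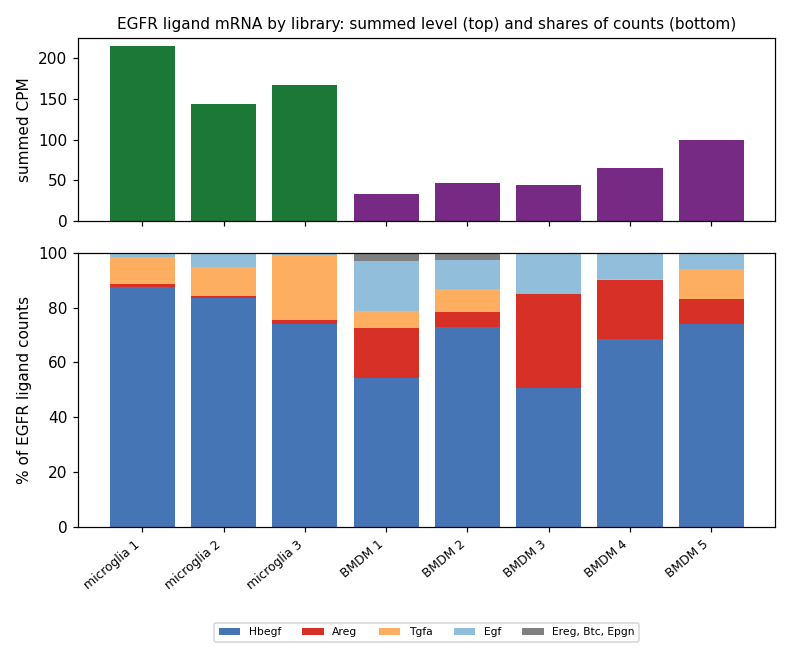
Summed CPM of 7 EGF receptor ligands per library (top, linear axis from 0) and the percent of those counts from each ligand (bottom), for 3 microglia and 5 BMDM libraries. Hbegf fills 74.2% to 87.6% of the microglia bars, and the Areg part spans 5.24% to 34.2% in BMDM against at most 1.26% in microglia.

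The other EGF family ligands were low. Egf, the founding ligand, could be tested and stood at 0.56 on the log2 scale (SE 0.88, edgeR adjusted p = 0.870), and Nrg4 was at 1.68 (SE 1.45, adjusted p = 0.727). Ereg, Btc, Epgn, Nrg2 and Nrg3 did not pass the filter, with at most 1.60 CPM in any library, reached by Nrg3 in BMDM 2. Of the 4 receptors, Egfr and Erbb2 did not pass the filter. Egfr had 0 counts in all 3 microglia libraries and 18 counts in BMDM, and Erbb2 had 31 and 12 counts. Erbb3, a receptor of neuregulins, reached 22.8, 7.95 and 3.11 CPM in microglia 1 to 3 and 0.159 to 12.4 CPM in BMDM, at -1.47 on the log2 scale (SE 1.01, edgeR adjusted p = 0.615). Erbb4 had 17 counts in microglia and 52 in BMDM, at 1.92 (SE 2.04, adjusted p = 0.792), and several gene models lie within it on the same strand.

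Of 9 genes of ligand shedding, 1 was higher and 0 lower, with a median log2 fold change of -0.24. Adam17, the main sheddase of EGF receptor ligands, stood at 115 ± 13.3 CPM (n = 3) in microglia and 97.3 ± 31.2 CPM (n = 5) in BMDM, at -0.24 (SE 0.35, edgeR adjusted p = 0.858). Adam8, a metalloproteinase of leukocytes, held 9.52, 27.0 and 9.23 CPM in microglia 1 to 3. BMDM 1 to 4 held 129 to 151 CPM of Adam8 and BMDM 5 held 52.2 CPM, so the groups did not overlap. Adam8 rose by 3.03 (SE 0.51, edgeR adjusted p = 0.00660), a call lost without microglia 3 (2.72, adjusted p = 0.0608) and with BMDM 4 and 5 alone (2.57, adjusted p = 0.152). Without microglia 2 the value was 3.70. Timp3, a tissue inhibitor of metalloproteinases, did not pass the test with all libraries, at -2.52 (SE 0.81, edgeR adjusted p = 0.152). With BMDM 1 to 3 alone it was lower, at -3.27 (adjusted p = 0.0310).

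**Figure D3:**
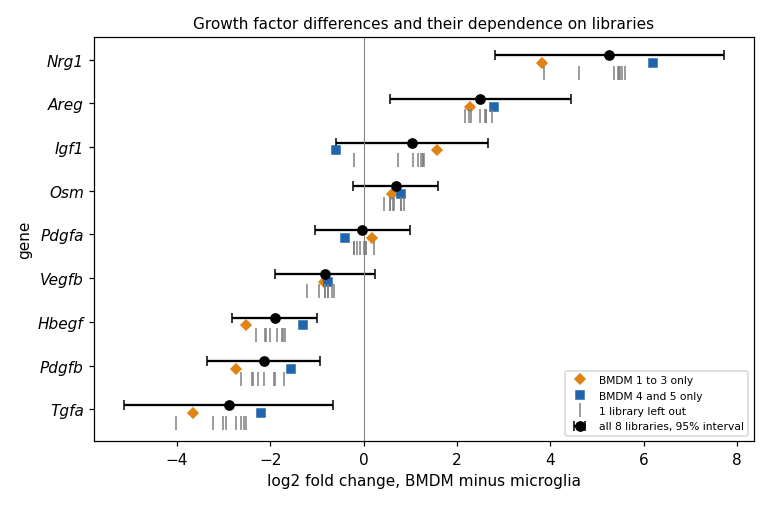
Log2 fold change of each growth factor (horizontal axis, BMDM minus microglia), with all 8 libraries and their unadjusted 95% interval (black), with BMDM 1 to 3 only (diamonds), with BMDM 4 and 5 only (squares) and with 1 library left out at a time (grey ticks). Nrg1 moves from 5.26 to 3.86 without BMDM 5, and Igf1 from 1.03 to -0.21 without BMDM 2.

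Pdgfb (ENSMUSG00000000489.7, chromosome 15, 79995874 to 80014977, minus strand) encodes PDGF-B, which binds PDGFRB and PDGFRA and recruits pericytes. Microglia 1, 2 and 3 held 188, 209 and 464 CPM. The corresponding BMDM levels, 1 to 5, were 22.2, 20.1, 85.0, 138 and 59.7 CPM. The groups did not overlap, but both were wide, with microglia 3 far above the other microglia and BMDM 4 far above BMDM 1 and 2. The means were 287 ± 153 CPM (n = 3) and 65.0 ± 48.9 CPM (n = 5), and the log2 fold change of -2.14 (SE 0.56, edgeR adjusted p = 0.0719) missed the threshold. DESeq2 and limma-voom, which called 5.55% and 2.37% of all genes, gave -2.06 (adjusted p = 0.0112) and -2.41 (adjusted p = 0.0355). The edgeR test called it with BMDM 1 to 3 alone, at -2.73 (SE 0.56, adjusted p = 0.00981), and without BMDM 4, at -2.63 (adjusted p = 0.0382).

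Microglia 3, the highest library for Pdgfb and for Tgfa, also had the highest immediate early sum, 23085 CPM, against 10044 and 13587 CPM in microglia 1 and 2. Endothelial cells, which the same gates should leave out, make PDGF-B too. Of 10 endothelial markers 8 could be tested and 0 were called by edgeR, DESeq2 or limma-voom (1 higher at an unadjusted p under 0.05), and they summed to 23.6 to 42.3 CPM in microglia and 39.1 to 59.6 CPM in BMDM. Of these markers Tek was at 0 in all BMDM libraries, and Cldn5 stood at 1.01 to 6.56 CPM in microglia and 0 to 4.14 CPM in BMDM. Pecam1 stood at 5.56 to 7.94 CPM in microglia and 3.43 to 31.5 CPM in BMDM (log2 fold change 1.61, edgeR adjusted p = 0.255), and Emcn and Tie1 were at 1.19 and 1.07 (adjusted p = 0.766 and 0.868). The part of either list in the Pdgfb values was not tested.

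Pdgfa (ENSMUSG00000025856.15, chromosome 5, 138976014 to 138997370, minus strand) encodes PDGF-A, the PDGFRA ligand of oligodendrocyte progenitors. Levels of Pdgfa in microglia 1, 2 and 3 were 51.9, 35.9 and 52.4 CPM, and BMDM 1 to 5 held 54.9, 36.2, 67.3, 61.0 and 10.2 CPM. The groups overlapped, and BMDM 5 was the lowest library of all. The log2 fold change was -0.027 (SE 0.48, edgeR adjusted p = 0.992), with an unadjusted 95% interval of -1.04 to 0.99, so a change of about that size in either direction is not detectable here. The sign depended on the scaling, at 0.078 with RLE factors and 0.15 with library totals alone. The antisense gene 6330403L08Rik overlaps Pdgfa and held 477 counts against 3567.

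The PDGF receptors were low in these cells. Pdgfra was at 0.421 to 1.61 CPM in microglia and 0 to 8.65 CPM in BMDM, at 1.82 on the log2 scale (SE 1.81, edgeR adjusted p = 0.769). Pdgfrb had 31 counts in microglia and 7 in BMDM and did not pass the filter. Of the 5 other genes of the PDGF axis 3 could be tested and 0 were called by edgeR, DESeq2 or limma-voom, also 0 at an unadjusted p under 0.05. Furin, the convertase that matures PDGF precursors, was at 0.55 (SE 0.45, edgeR adjusted p = 0.702).

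Vegfb (ENSMUSG00000024962.13, chromosome 19, 6982473 to 6987651, minus strand) encodes VEGF-B, a ligand of FLT1 linked to vessel survival and fatty acid uptake. Levels of Vegfb in microglia 1, 2 and 3 were 21.5, 7.84 and 23.7 CPM, and BMDM 1 to 5 held 8.26, 10.2, 10.4, 13.1 and 7.88 CPM. Microglia 2 lay just below all 5 BMDM libraries, and the other microglia lay above all of them. The log2 fold change was -0.83 (SE 0.50, edgeR adjusted p = 0.539), or -1.22 without microglia 2 (adjusted p = 0.522). None of the 18 alternatives called it.

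Of the 9 other genes of the VEGF axis 6 could be tested, 1 was higher in BMDM and 0 lower. Vegfa, the main angiogenic member of the family, held 20.1, 30.5 and 27.8 CPM in microglia 1 to 3. BMDM 1 to 5 held 67.8, 42.1, 184, 279 and 270.3 CPM of it. Vegfa thus rose without overlap, by 2.69 (SE 0.60, edgeR adjusted p = 0.0311), while Vegfb stood at -0.83. The call for Vegfa was lost without any 1 microglia library (edgeR adjusted p = 0.153, 0.0986 and 0.143) and without BMDM 3 (0.0782) or BMDM 4 (0.0699), and the value was 1.92 with BMDM 1 to 3 alone.

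Among receptors of VEGF-B, Flt1 stood at 13.8 ± 9.08 CPM (n = 3) in microglia and 26.3 ± 10.7 CPM (n = 5) in BMDM, at 0.92 on the log2 scale (SE 0.52, edgeR adjusted p = 0.487). Nrp1 was at 150.2 to 175 CPM in microglia, at 69.1 to 124 CPM in BMDM 1 to 4 and at 270 CPM in BMDM 5, at -0.32 (SE 0.44, adjusted p = 0.849). With BMDM 1 to 3 alone Nrp1 was lower, at -0.97 (SE 0.25, edgeR adjusted p = 0.0236). Kdr, the main receptor of VEGF-A, was at 0.039 (SE 0.55, adjusted p = 0.990).

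Igf1 (ENSMUSG00000020053.18, chromosome 10, 87858265 to 87937042, plus strand) encodes insulin-like growth factor 1, a survival factor for neurons, oligodendrocytes and tumor cells. Microglia 1, 2 and 3 held 30.7, 25.1 and 14.2 CPM, and BMDM 1 to 5 held 33.7, 159, 15.2, 9.23 and 22.0 CPM. The groups overlapped across most of their range, and BMDM 2 alone lay far above, with 1293 counts and a Poisson interval of 151 to 168 CPM. The log2 fold change was 1.03 (SE 0.76, edgeR adjusted p = 0.651) and turned to -0.21 without BMDM 2 (adjusted p = 0.955) and to -0.60 with BMDM 4 and 5 alone (adjusted p = 0.675). Neither direction passed a test.

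Igf1r, its receptor, held 44.2, 61.6 and 46.6 CPM in microglia and 31.6, 26.1, 23.5, 38.0 and 69.2 CPM in BMDM 1 to 5. Its log2 fold change was -0.43 (SE 0.39, edgeR adjusted p = 0.742), and with BMDM 1 to 3 alone it was lower, at -0.90 (SE 0.27, adjusted p = 0.0482). In the IGF axis list 9 of 13 genes could be tested and 0 were called with all libraries by edgeR, DESeq2 or limma-voom, also 0 at an unadjusted p under 0.05. Insr, the insulin receptor, was at -1.16 (SE 0.67, edgeR adjusted p = 0.514), and Irs2, an adaptor of both receptors, at 0.59 (SE 0.35, adjusted p = 0.529). Insr joined Igf1r as lower with BMDM 1 to 3 alone, at -2.37 (SE 0.50, adjusted p = 0.0104). Igfbp4, an IGF-binding protein, was at -0.15 (SE 0.70, edgeR adjusted p = 0.967).

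Osm (ENSMUSG00000058755.3, chromosome 11, 4236420 to 4241026, plus strand) encodes oncostatin M, which acts on astrocytes, endothelium and glioma cells. Microglia 1, 2 and 3 held 131, 187 and 145 CPM, and BMDM 1 to 5 held 122, 167, 409, 276 and 272 CPM. BMDM 3, 4 and 5 lay above all microglia libraries, and BMDM 1 and 2 lay within or below the microglia range. The log2 fold change was 0.69 (SE 0.42, edgeR adjusted p = 0.556), with an unadjusted 95% interval of -0.22 to 1.59. Values ran from 0.40 to 0.87 over the 18 alternatives, and none called it.

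Neutrophils, which the Ly6G gate should leave out, also make oncostatin M. Of 10 neutrophil markers 7 could be tested, and edgeR called 1 (S100a8) higher in BMDM and 0 lower. There were 4 higher and 1 lower at an unadjusted p under 0.05, 4 and 1 by DESeq2, and 0 and 0 by limma-voom. The marker lower at an unadjusted p under 0.05 was Csf3r, at -1.61 on the log2 scale (SE 0.45, edgeR adjusted p = 0.0887). Every BMDM library lay below every microglia library for Csf3r. With BMDM 1 to 3 alone edgeR called S100a8, S100a9, Mmp8 and Retnlg higher and Csf3r lower, against 6.35% and 8.11% of all genes. The list summed to 37.7 to 41.6 CPM in microglia and 60.5 to 118 CPM in BMDM. Ly6g was at 0 in all microglia and in BMDM 1, 2 and 4, with 0.114 CPM in BMDM 3 and 0.138 CPM in BMDM 5. The part of neutrophils in the Osm values was not tested.

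On the receptor side of oncostatin M, Il6st was lower in BMDM. This gene, which encodes gp130, held 56.4, 46.4 and 93.2 CPM in microglia and 12.6, 11.5, 6.18, 11.9 and 30.3 CPM in BMDM 1 to 5. It fell by 2.17 in BMDM without overlap (SE 0.46, edgeR adjusted p = 0.0233). Its call was lost without microglia 1 (edgeR adjusted p = 0.0573) or microglia 3 (0.129) and without BMDM 1, 2, 3 or 4 (0.0638, 0.0630, 0.0583 and 0.0503), each with a log2 fold change of at least 1.92 in size. Osmr held 10.9, 8.15 and 5.90 CPM in microglia, and 7.19, 1.97, 0, 0 and 0 CPM in BMDM 1 to 5. Its log2 fold change was -2.18 (SE 1.50, edgeR adjusted p = 0.615).

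Of 12 genes of the oncostatin M receptor and its signaling, Il6st was the only 1 called, with 0 higher and a median of -0.10. Il6ra, the interleukin 6 receptor, was at -0.81 (SE 0.30, edgeR adjusted p = 0.219), Stat3, the main transcription factor downstream, at -0.71 (SE 0.39, adjusted p = 0.472), and Socs3, its feedback inhibitor, at 0.46 (SE 0.52, adjusted p = 0.814). Lifr, the receptor of leukemia inhibitory factor, was at -0.66 (SE 0.67, edgeR adjusted p = 0.782) and was lower with BMDM 1 to 3 alone, at -2.21 (SE 0.42, adjusted p = 0.00657). Of the 7 other interleukin 6 family cytokines 4 could be tested and 0 were called with all libraries by edgeR, DESeq2 or limma-voom. At an unadjusted p under 0.05 there was 1, Clcf1, at -1.10 (edgeR adjusted p = 0.293). With BMDM 1 to 3 alone Clcf1 was lower, at -1.27 (SE 0.36, edgeR adjusted p = 0.036). Il6 itself was at -1.81 (SE 1.27, adjusted p = 0.623).

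**Figure D4:**
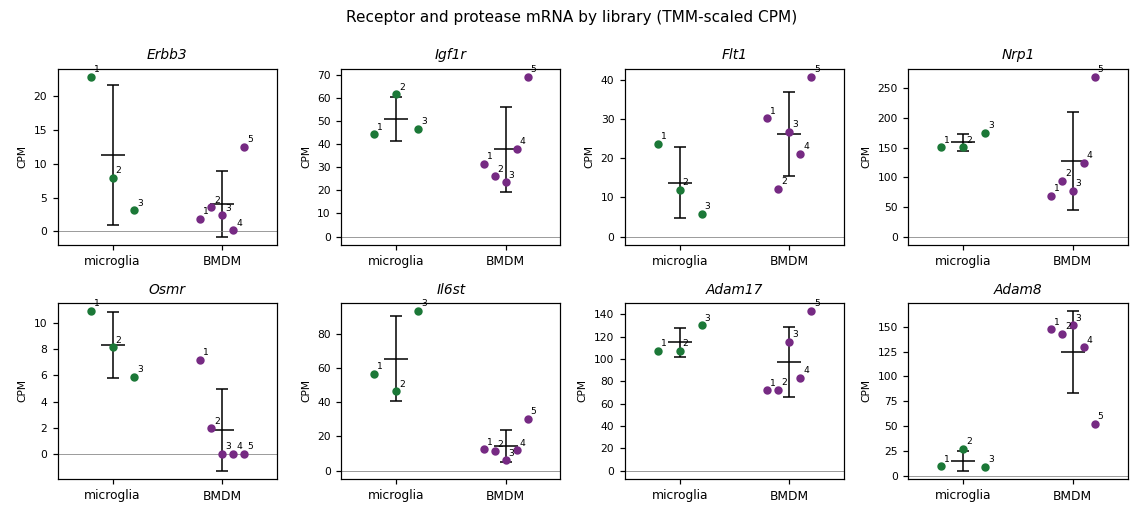
Receptor and protease mRNA in each library as TMM-scaled CPM (vertical axis, linear, a separate scale per gene), with 3 microglia and 5 BMDM libraries as numbered points and the group mean and SD as a bar with whiskers. Il6st lies at 46.4 to 93.2 CPM in microglia and 6.18 to 30.3 CPM in BMDM, and Adam8 at 9.23 to 27.0 CPM and 52.2 to 151 CPM.

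Over the 9 pathway lists around these growth factors, 60 of 83 genes could be tested, 2 were higher (Adam8 and Vegfa) and 2 lower (Il6st and Pros1). These 4 make up 6.67% of the tested pathway genes, against 1.93% of all genes tested. DESeq2 and limma-voom also called 2 higher and 2 lower, against 5.55% and 2.37% of all genes. The lists were chosen with earlier results of these data known, and the difference in shares was not tested. Pros1, which encodes protein S, a ligand of the MERTK and TYRO3 receptors, held 86.9, 72.4 and 90.2 CPM in microglia. BMDM 1 to 5 held 11.6, 15.3, 17.0, 11.3 and 1.93 CPM of it. It fell by 2.86 (SE 0.49, edgeR adjusted p = 0.00744), a call kept when any 1 library was left out. It was not called with BMDM 4 and 5 alone (-3.67, adjusted p = 0.114).

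The genes whose pattern over the 8 libraries was nearest to each growth factor were found by the root mean square difference of centred log2 CPM among 7042 genes averaging 10 CPM or more. For Nrg1 these were Plekhg3 (difference 0.69) and Arg2 (0.78), both called higher by edgeR, at 4.34 (adjusted p = 0.0450) and 4.04 (adjusted p = 0.0446). Arg2 encodes the mitochondrial arginase. For Hbegf they were Ccdc93 (0.26) and Etnk1 (0.33), for Areg Slamf7 (0.38) and Cd40 (0.39), and for Tgfa Plod2 (0.85) and Col9a1 (1.11). For Pdgfb they were Tnf (0.49), an inflammatory cytokine, and Ly86 (0.51), and for Pdgfa Pcsk7 (0.23) and Arhgap45 (0.24). Vegfb lay nearest to the replication genes Pcna (0.27) and Lig1 (0.30), Igf1 to Vcam1 (0.54) and Cep44 (0.59), and Osm to Lfng (0.17) and Itgal (0.23). These distances describe 8 libraries and scale with how much a gene varies, from an SD of 0.61 on the log2 scale for Osm to 2.85 for Nrg1.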

How the data were processed

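Sorted cells were sequenced as QuantSeq 3′ FWD libraries on a NextSeq500, per the labels' protocols. The authors deposited raw read counts per gene, and per the submitters' processing notes the tools included STAR and featureCounts, with cutadapt, FastQC and DESeq2, and the build mm10, with settings not given in the sources used here. All identifiers (100%) were found in GENCODE M21 (GRCm38), the source of positions.

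From these counts, the BMDM minus microglia difference was fitted with edgeR 4.0.16 in R 4.3.3 (filterByExpr, minimum count 10 and total 15; TMM factors; robust quasi-likelihood test; Benjamini-Hochberg adjustment over 16467 genes). Standard errors derive from the F statistic. CPM uses TMM-scaled totals of tested genes, and log2 CPM a prior count of 2. Scripts were tested on simulated data. No replicate pair was alike within sampling noise (lowest chi-square per degree of freedom 18.4).

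The growth factors and gene lists were chosen with earlier results of these data known. Named genes were the 9 factors, their receptors, Adam17, up to 3 called genes per list and direction, the 2 nearest patterns per factor, and other list members with values as background. Alternatives were DESeq2 1.42.0, limma-voom 3.58.1, RLE factors, library totals, 2 other filters, a replicate block, BMDM 1 to 3 or 4 and 5 alone, exclusion of ribosomal RNA genes, and each library left out.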

Additional observations from a re-analysis of the deposited data

Results flagged for a closer look

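In 9 of 25 genes checked, 1 BMDM library stood apart from the other 4 by Dixon's test. The genes checked were the growth factors, their receptors, Adam17 and the called pathway genes. The threshold was the 95% critical value for 5 libraries (0.71). Chance passes it in about 5% of groups when values are normally distributed. The test used linear CPM, which was not shown to be so distributed. Osmr and Erbb2 had no counts in several BMDM libraries. The share of all genes passing was not counted, so 9 of 25 has no background here and is not shown to exceed chance. Of these 9 genes, 5 concerned BMDM 5. Nrg1 reached 134 CPM in BMDM 5 against at most 16.5 CPM in the other BMDM libraries, and the gap made up 0.958 of the range. Erbb3 (12.4 CPM), Nrp1 (269.6 CPM) and Il6st (30.3 CPM) were also highest there, and Adam8 (52.2 CPM) was lowest. BMDM 5 also held the most counts of Gm42418, at 48.9%, and detected 14638 genes. Igf1 reached 159 CPM in BMDM 2 against at most 33.7 CPM in the others, a gap of 0.837 of the range. Erbb2 (1.14 CPM in BMDM 3), Pdgfrb (0.533 CPM in BMDM 1) and Osmr (7.19 CPM in BMDM 1) were set apart at low counts.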

How the results depend on the processing

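Over 40 named genes and 18 alternatives, 708 log2 fold changes were obtained. Of these, 574 kept direction and side of the threshold, 70 lost a call, 33 gained one and 31 changed sign. The median of all genes was 0.078, and it shifted to 0.17 with RLE factors, 0.20 with library totals, 0.18 with DESeq2 and -0.23 with limma-voom, so values under those settings move with it.

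With all libraries 183 genes were higher and 134 lower. DESeq2 gave 601 and 313, no filter 403 and 318, BMDM 1 to 3 alone 1028 and 1312, BMDM 4 and 5 alone 11 and 6, and limma-voom 250 lower. With 1 library left out, higher genes ran from 58 (without microglia 3) to 536 (without BMDM 5) and lower genes from 46 to 602, for the same libraries. Every library except BMDM 4 moved 1 of these counts by over 1.5 times. Of the growth factors, 1 was higher and 1 lower. DESeq2 gave 1 higher, Areg rather than Nrg1, and 2 lower. Limma-voom gave 0 higher and 2 lower, no filter 3 lower, BMDM 1 to 3 alone 3 lower, and BMDM 4 and 5 alone 0 and 0. With 1 library left out, 0 to 1 were higher and 0 to 2 lower. Pathway genes called (2 and 2) became 9 lower with BMDM 1 to 3 alone, where 8.11% of all genes were lower. With BMDM 4 and 5 alone they were 1 and 0, against 0.0683% and 0.0372% of all genes. They ran from 0 to 2 higher and 1 to 2 lower with 1 library left out. The cause was not tested, beyond the smaller number of libraries.

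The labels do not tie replicate numbers across the groups, so the main fit has no block. Correlations of deviations across genes were 0.14, 0.09 and 0.24 for numbers 1, 2 and 3. Each library of these numbers correlated best with its own number, so whether the numbers pair the samples is not settled. With a replicate block 1449 genes were higher and 1774 lower (8.80% and 10.8%), with 11 pathway genes lower. Of the growth factors 2 were higher and 2 lower, with Areg (2.01, edgeR adjusted p = 0.0377) and Pdgfb (-2.96, adjusted p = 1.08e-05) added to Nrg1 and Hbegf. Numbers 4 and 5 occur only in BMDM, so this fit takes the group difference from numbers 1, 2 and 3.

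Among the genes whose sign changed, Igf1r and Nrp1 were called lower with the replicate block, and none was called with all libraries without it by edgeR. Pdgfa was at 0.078 with RLE factors and with DESeq2, 0.15 with library totals and with the replicate block, 0.094 with the stricter filter of 10 CPM in 3 libraries, 0.19 with BMDM 1 to 3 alone, 0.046 without Gm42418 and mitochondrial rRNA, and -0.22 to 0.22 with 1 library left out. Igf1 was at -0.60 with BMDM 4 and 5 alone and -0.21 to 1.29 with 1 left out. With BMDM 4 and 5 alone Igf1r was at 0.066, Kdr at -0.52, Nrp1 at 0.30, Vcam1 at -0.17, Cep44 at -0.74, Pcsk7 at -0.040 and Arhgap45 at -0.71. With limma-voom Kdr was at -0.16, Cep44 at -0.049, Pcsk7 at -0.11 and Arhgap45 at -0.19. With 1 library left out Kdr ran from -0.22 to 0.27, Cep44 from -0.033 to 0.63, Pcsk7 from -0.086 to 0.38 and Arhgap45 from -0.21 to 0.34. Depth limits Nrg1 and Areg in microglia and Tgfa in BMDM, which rest on 41, 64 and 127 counts.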

Other observations

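In the list of other growth factors, which leaves out the VEGF, PDGF, IGF, EGF and interleukin 6 families, edgeR called 1 of 13 tested genes, Pros1, while 3 were lower and 0 higher at an unadjusted p under 0.05. Gas6, the other ligand of the MERTK, AXL and TYRO3 receptors, stood at 83.7 to 109 CPM in microglia and 18.1 to 74.9 CPM in BMDM without overlap, with a log2 fold change of -1.12 (SE 0.40, edgeR adjusted p = 0.203). Gdnf, a neurotrophic factor of the glial cell line-derived family, was at -2.19 (SE 1.02, adjusted p = 0.361) and was lower with BMDM 1 to 3 alone, at -3.21 (SE 0.87, adjusted p = 0.0307). Grn, which encodes progranulin, was at -0.37 (SE 0.42, adjusted p = 0.810), Mif at 0.63 (SE 0.42, adjusted p = 0.601), Hgf at 0.71 (SE 0.47, adjusted p = 0.594) and Tgfb1 at -0.30 (SE 0.43, adjusted p = 0.858).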
